A study of Homo sapiens with 12 samples.

Results

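The genes of the autophagy machinery were followed in A549 cells exposed to a dose of cisplatin that left their growth nearly untouched. The set was a list of 42 genes, from the kinases that start autophagy to the membrane proteins of the lysosome. A gene was measured where a transcript cluster of the array (the group of probes summarized as 1 transcript) was paired with its symbol alone, and the brightest such cluster was used. This held for 33 of the 42 genes, among 14232 genes tested in all. BECN1, WIPI1, VMP1, ATG4D, ATG16L1, GABARAPL1 and SQSTM1 were paired with several genes, and ATG2A and ATG4B had no entry in the probe table, so these 9 genes are not described. Of the 33 genes, DRAM1, ULK1, ULK2 and ATG10 are linked to p53, and the other 29 formed the comparison for them.

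A549 is an established line of human lung adenocarcinoma that carries wild-type p53. Cells were exposed to cisplatin, a platinum drug that crosslinks DNA, at its no-observed-effect level (NOEL, the IC10) or were left untreated. RNA was collected after 24 or 48 h and hybridised to Affymetrix exon arrays. There were 3 arrays for cisplatin at 24 h, 3 for untreated cells at 24 h, 3 for cisplatin at 48 h and 3 for untreated cells at 48 h, 12 in all. No group carried a transgene or a deletion, and all groups were 1 cell line in plate culture. The methods speak of independent experiments without tying them to single arrays, so the p-values measure the spread between arrays. Values are log2 intensities after RMA, and differences are cisplatin minus untreated on that scale. Since each cluster has probes of its own, the levels of different genes were not set against each other. These are bulk samples, in which fewer cells of a type and less RNA per cell cannot be told apart.

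Autophagy delivers pieces of the cytoplasm to the lysosome in a vesicle called the autophagosome. The ULK kinase complex and the lipid kinase complex around PIK3C3 start the vesicle, ATG9A and ATG2B supply it with membrane, and a ubiquitin-like conjugation system attaches the ATG8 proteins (the LC3 and GABARAP families) to it. Cargo receptors tie the load to the ATG8 proteins, and the finished vesicle fuses with the lysosome. After DNA damage, p53 is known to raise the transcription of several autophagy genes, DRAM1 among them, while TFEB and TFE3 are transcription factors that drive genes of autophagy and of the lysosome. Much of the control of autophagy acts on proteins, which these arrays do not measure.

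TFEB and TFE3, members of the set, are known to bind DNA at the letters CACGTG, the core of their preferred site. For this reason the promoter stretches of the members that hold these letters are shown, with each CACGTG in capitals and the rest in lower case, each 5′ to 3′ on the strand of the gene. ATG3, the enzyme that transfers ATG8 proteins to their lipid, had 2 copies on chr3:112561942-112562005 (minus strand). ATG14, the subunit that directs the lipid kinase to autophagy, had 1 on chr14:55411836-55411876 (minus strand). LAMP1, a major glycoprotein of the lysosomal membrane, had 6 on chr13:113297022-113297253 (plus strand).
ATG3: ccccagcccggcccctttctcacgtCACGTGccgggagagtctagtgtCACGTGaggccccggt
ATG14: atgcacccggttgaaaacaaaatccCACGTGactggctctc
LAMP1: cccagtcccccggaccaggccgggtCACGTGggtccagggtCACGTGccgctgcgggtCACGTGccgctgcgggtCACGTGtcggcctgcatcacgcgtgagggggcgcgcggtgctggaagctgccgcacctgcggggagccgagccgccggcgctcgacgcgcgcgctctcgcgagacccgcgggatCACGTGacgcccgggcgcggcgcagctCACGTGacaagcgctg
The sequences are from RefSeq (GRCh38.p14), where 37 of the 42 listed genes had a promoter window of 300 bases, 250 before the start of the gene and 50 after it. The letters read the same on both strands. They occurred in the windows of 3 of the 37 genes (8.11%) and in 7.26% of all 35116 promoters. The longer TCACGTGA, which contains CACGTG, occurred in ATG3 and LAMP1 (5.41% of the 37) and in 0.98% of all promoters. In LAMP1 the copies began at positions -192 to -1 relative to the start of the gene, and 1 of the 35116 promoters, its own, held 6 or more. The p53 half-site, searched on both strands, occurred in 1 of the 37 windows, that of GABARAPL1 (2.7%), in 0 of the 4 of the p53-linked genes and in 6.63% of all promoters. A match describes the letters of this window alone, and a window without one says nothing of the factor.

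The array of untreated 24 h replicate 3 lay apart from the 11 others, and this bears on every value at 24 h. Its mean correlation with the other arrays was 0.972, and a line through its values against the mean of the others had a slope of 0.879. It lay below the mean of the other arrays for 31 of the 33 autophagy genes and was the lowest of the 12 arrays for 22 of them. The median of the autophagy genes on it was -0.25 relative to the other arrays, against -0.10 for all genes and -0.27 for the 7116 genes above the median level, where 28 of the 33 autophagy genes belong. Of the epithelial markers, the keratins KRT8 and KRT18 were at 13.43 to 13.76 and 11.34 to 11.65. The other epithelial markers, CDH1 and EPCAM, were at 8.52 to 9.90 and 6.64 to 7.87. The mean of the 4 epithelial markers was 10.2 to 10.6 in cisplatin and 10.1 to 10.6 in untreated cells. That of 4 fibroblast markers was 5.77 to 6.01 in cisplatin and 5.82 to 6.26 in untreated cells, that of 3 blood markers 5.46 to 5.72 in cisplatin and 5.47 to 5.93 in untreated cells, and that of 3 endothelial markers 6.30 to 6.65 in cisplatin and 6.33 to 6.91 in untreated cells. PTPRC, the defining marker of blood cells, was at 3.63 to 4.18 on arrays whose values ran upward from 2.14. The blood markers CD3E and CD14 were at 4.85 to 5.97 and 7.61 to 8.30, and the fibroblast marker COL1A1 was at 8.07 to 8.69. Since probes differ between genes, these levels do not rank cell types, and the part of other cell types in the results was not tested. As a check of the treatment, CDKN1A, the p21 inhibitor of the cell cycle and a known p53 target, was at 10.79, 11.12 and 10.93 in cisplatin and 10.02, 9.75 and 9.39 in untreated cells at 24 h. It was higher by 1.14 (SE 0.10) over both times (adjusted p = 0.000254, limma). At 48 h alone it was higher by 1.04 (2.06-fold), with an adjusted p of 0.0965 by limma. The adjusted threshold of 0.05 at 48 h thus missed a 2.06-fold difference, and 0 of all genes passed it. CDKN1A is on the list of genes the study chose from these arrays, so this check is not independent evidence.

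**Figure D1:**
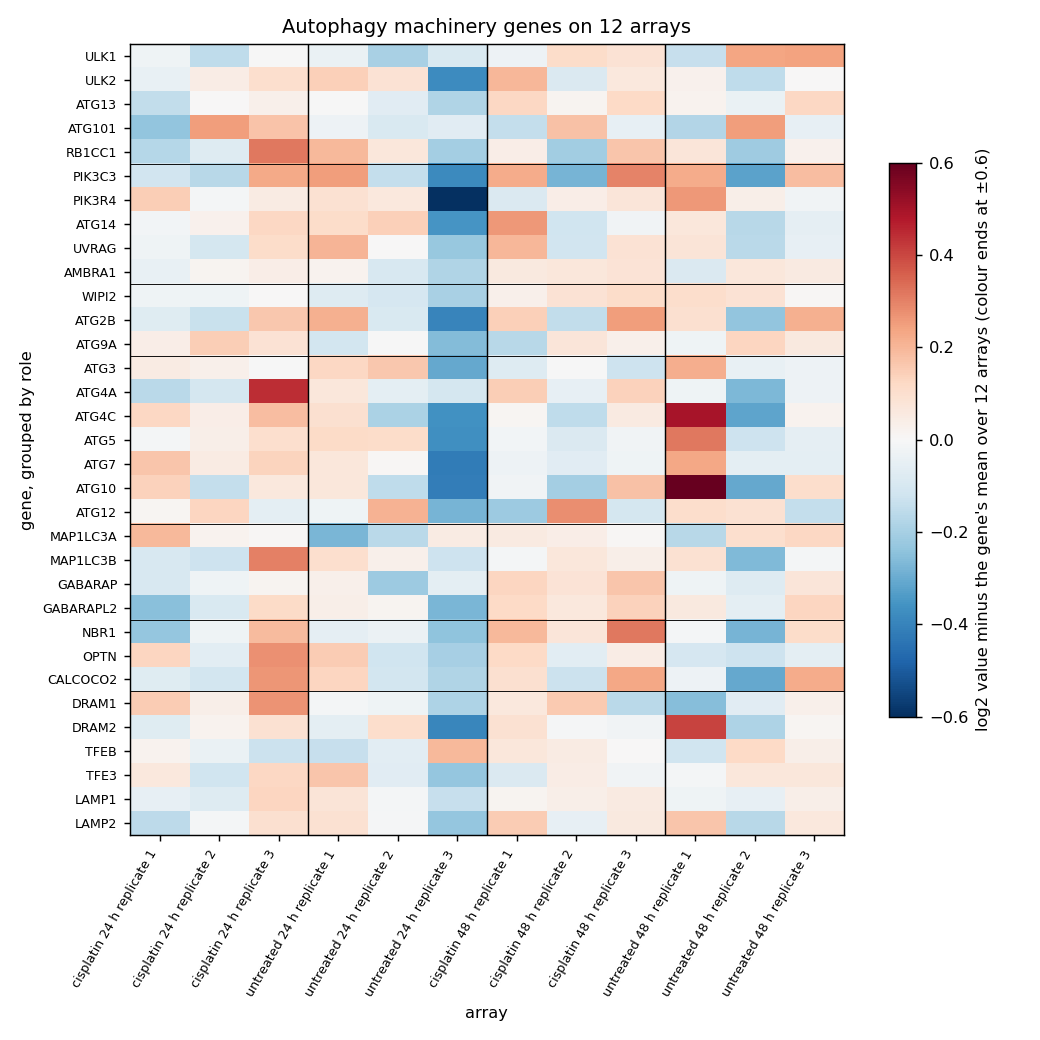
Each cell shows a gene's log2 value on 1 of the 12 arrays minus the gene's mean over the 12 arrays, with genes grouped by role and black lines between roles and between groups of arrays. Red is above and blue below the mean; the column of untreated 24 h replicate 3 is blue for 31 of the 33 genes.

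No autophagy gene passed the test between cisplatin and untreated cells over both times. At an adjusted p under 0.05 from limma, 0 of the 33 were called, where 4 of the 14232 genes (0.0281%) were. At an unadjusted p under 0.05, again 0 of the 33 were called, where 3.33% of all genes were. The differences were small: they ran between -0.04 for ATG3 and 0.17 for DRAM1, with a median of 0.06 against 0.0089 for all genes, and 29 of the 33 were above 0. Genes of like level came closer: the 7116 genes above the median level had a median of 0.05, with 77.3% above 0. The 28 autophagy genes among them had a median of 0.06, with 25 above 0. All 33 intervals (95%) spanned 0 and lay within 1.5-fold in either direction. The lowest bound was -0.31 (0.805-fold), for ATG10, and the highest was 0.38 (1.30-fold), for NBR1. Each bound holds for its gene singly, and at the precision of 12 arrays smaller differences could not be told from 0.

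The same held at each time. At 24 h, 0 of the 33 passed an adjusted p under 0.05 (0.00703% of all genes) and 0 passed an unadjusted p under 0.05 (3.06% of all genes). The median was 0.08, against 0.03 for all genes, and 31 of the 33 differences were above 0. At 48 h, 0 passed the adjusted threshold (0% of all genes) and 0 the unadjusted one (1.15% of all genes), with a median of 0.04, against -0.02 for all genes, and 21 of the 33 above 0. The intervals lay within 1.5-fold either way for 31 of the 33 genes at 24 h and for 32 at 48 h. The furthest bounds were 0.65 for ATG4C at 24 h and -0.62 for ATG10 at 48 h. The difference between the effects at 48 h and at 24 h was called for 0 genes of the set at an adjusted p under 0.05 (0% of all genes) and for 0 at an unadjusted one (1.15% of all genes). These fits had no term for the replicate number, so spread shared by same-numbered arrays at 48 h counted as error. With the 48 h arrays alone and that number as a term, 5.02% of all genes passed an unadjusted p under 0.05 (limma). ATG4A and NBR1 were among them, as given below.

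**Figure D2:**
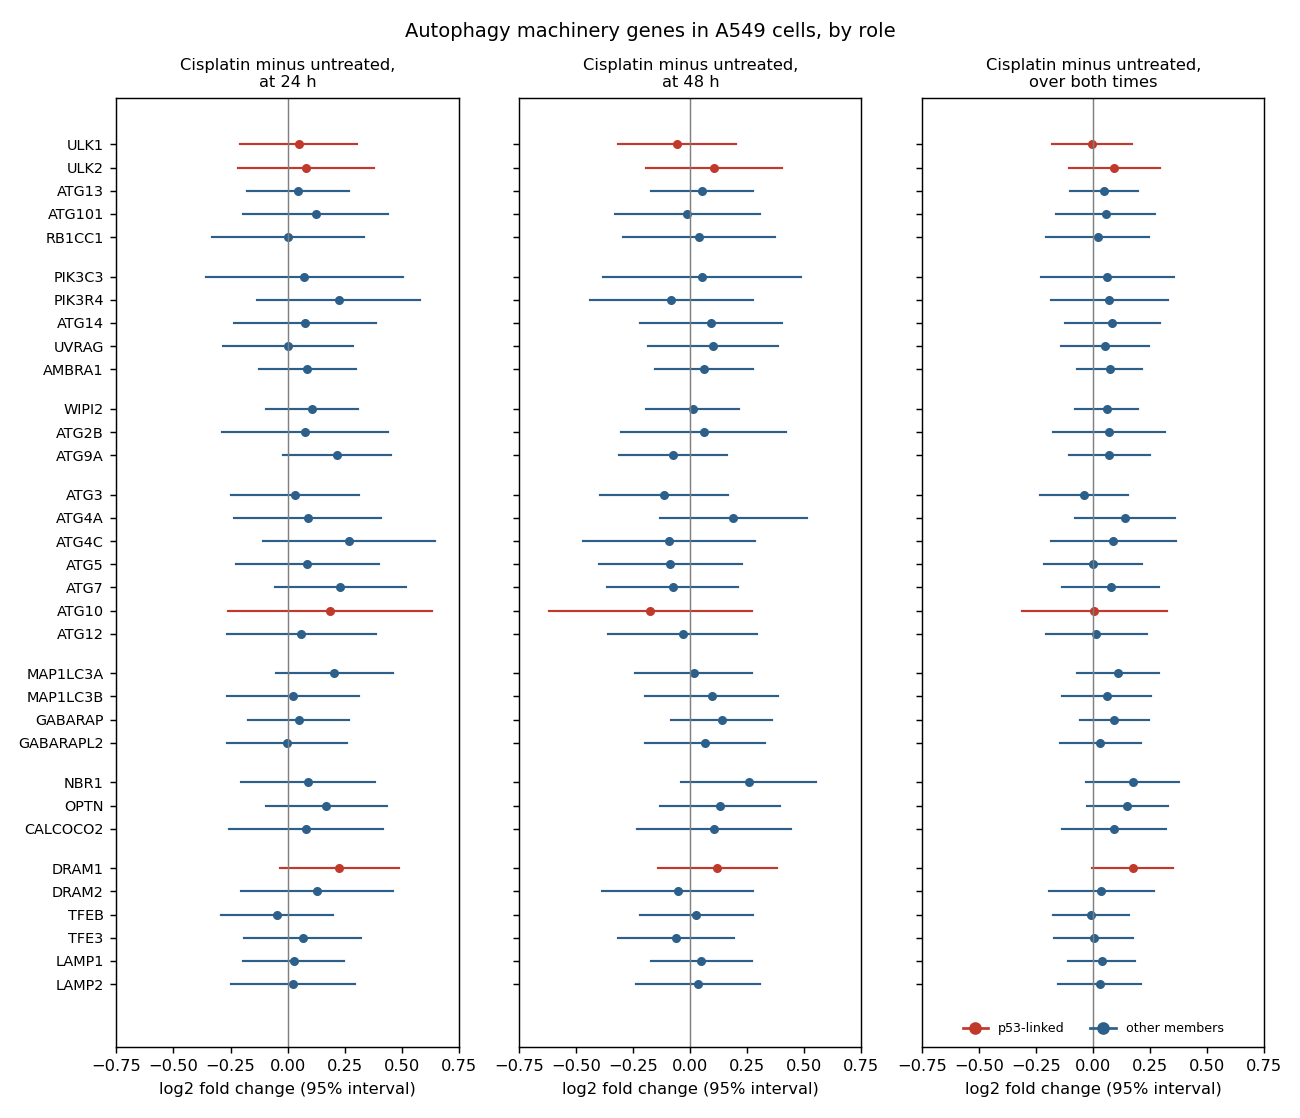
Points are log2 fold changes of cisplatin minus untreated at 24 h, at 48 h and over both times, and bars are 95% intervals from limma, with genes grouped by role from the ULK complex at the top to the lysosome at the bottom. Every bar crosses 0; the p53-linked genes are in red.

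The lean above 0 at 24 h was not there without untreated 24 h replicate 3. Without that array, the median of the 33 genes at 24 h was -0.0038 and 16 of the 33 were above 0. Over both times it was 0.01, with 19 of 33 above 0. Brighter genes as a whole leaned the same way with all arrays: among the 28 autophagy genes above the median level, the median at 24 h was 0.08 and 27 were above 0, where the 7116 genes above that level had a median of 0.10 and 83.0% above 0. At 48 h these 28 had a median of 0.04 and 16 were above 0, where the 7116 had -0.0030 and 48.9%. Further arrays moved the medians too. Leaving out untreated 24 h replicate 1 gave a median of 0.14 at 24 h, and leaving out cisplatin 24 h replicate 3 gave 0.04, with 21 of 33 above 0. At 48 h the median was 0.07, with 26 of 33 above 0, without untreated 48 h replicate 1, 0.0035, with 18 of 33 above 0, without untreated 48 h replicate 2, and 0.02 without cisplatin 48 h replicate 3. MAP1LC3A and TFEB lay above the other arrays' mean on untreated 24 h replicate 3, and at 24 h their differences without it were 0.29 and 0.05.

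**Figure D3:**
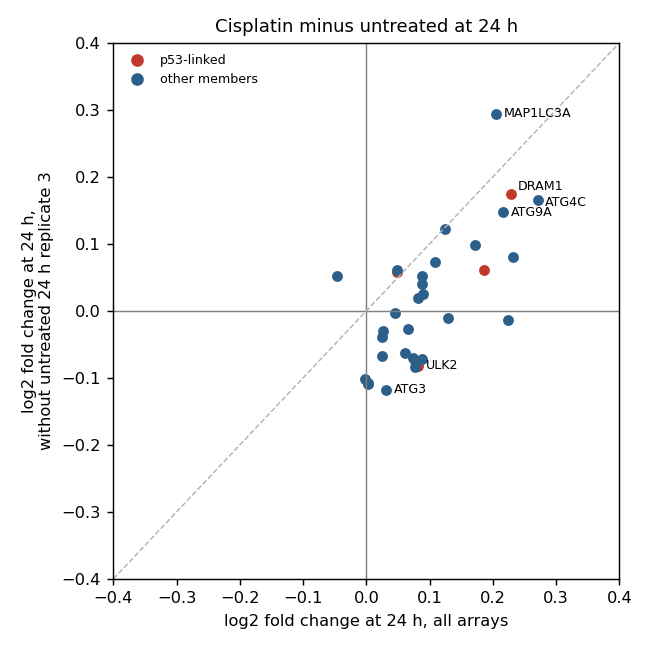
Each point is 1 of the 33 genes, with its log2 fold change at 24 h from all arrays on the x axis and without untreated 24 h replicate 3 on the y axis; the dashed line marks equal values. Of the 33 genes, 31 lie right of 0, while 16 lie above 0 without that array.

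Groups that did not overlap were counted in the autophagy genes and in all genes, and the shares were not tested against each other. Over both times, all 6 cisplatin arrays lay above all 6 untreated ones for 0 of the 33 genes (0.218% of all genes) and below them for 0 (0.0281% of all genes). At 24 h, the 3 cisplatin arrays lay above the 3 untreated ones for WIPI2, ATG9A and DRAM1, 3 of the 33, where 5.94% of all genes did, and below them for 0 (1.51% of all genes). At 48 h they lay above for GABARAP, 1 of the 33, where 3.58% of all genes did, and below for 0 (2.43% of all genes). These shares over all genes include the shift of untreated 24 h replicate 3, whose part in the 3 genes at 24 h is given with each of them.

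DRAM1, a lysosomal membrane protein through which p53 is known to promote autophagy, had the largest difference of the p53-linked genes at 24 h and over both times with all arrays. It was at 10.38, 10.26 and 10.49 in cisplatin and at 10.21, 10.19 and 10.04 in untreated cells at 24 h. At 48 h it was at 10.29, 10.38 and 10.06 in cisplatin and at 9.97, 10.16 and 10.25 in untreated cells. The groups were apart at 24 h, by 0.05 between the nearest arrays, and overlapped at 48 h, where cisplatin replicate 3 was among the low arrays. DRAM1 averaged 10.31 ± 0.15 in cisplatin and 10.14 ± 0.11 in untreated cells over both times (SD, n = 6 each). The difference was 0.17 (SE 0.08, 1.13-fold, adjusted p = 0.991, limma), with 0.23 at 24 h and 0.12 at 48 h. Without untreated 24 h replicate 3 it was 0.14 over both times and 0.17 at 24 h.

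ULK1 and ULK2 are the alternative kinases of the complex that starts autophagy. ULK1 was at 9.87, 9.74 and 9.89 in cisplatin and at 9.85, 9.69 and 9.80 in untreated cells at 24 h. Its values at 48 h were 9.86, 10.00 and 9.98 in cisplatin and 9.75, 10.12 and 10.13 in untreated cells. Its groups overlapped at both times, and the difference over both was -0.01 (SE 0.08). ULK2 was at 9.43, 9.52 and 9.58 in cisplatin and at 9.62, 9.56 and 9.10 in untreated cells at 24 h. The 48 h arrays gave 9.68, 9.39 and 9.54 in cisplatin and 9.50, 9.32 and 9.48 in untreated cells. The lowest of these 12 values was that of untreated 24 h replicate 3, and the difference over both times was 0.09 with it and 0.02 without it.

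ATG10, the enzyme that passes ATG12 on to ATG5, varied most between untreated arrays among the p53-linked genes. It was at 9.19, 8.91 and 9.12 in cisplatin and at 9.12, 8.90 and 8.64 in untreated cells at 24 h. At 48 h it was at 9.03, 8.85 and 9.23 in cisplatin and at 9.74, 8.74 and 9.15 in untreated cells. Untreated 48 h replicate 1 was thus the highest of the 12 arrays and untreated 24 h replicate 3 the lowest, and all groups overlapped. The difference was 0.19 at 24 h and -0.18 at 48 h, and 0.01 (SE 0.15) over both. Without untreated 48 h replicate 1 the value at 48 h was 0.09, and without untreated 24 h replicate 3 the value at 24 h was 0.06.

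**Figure D4:**
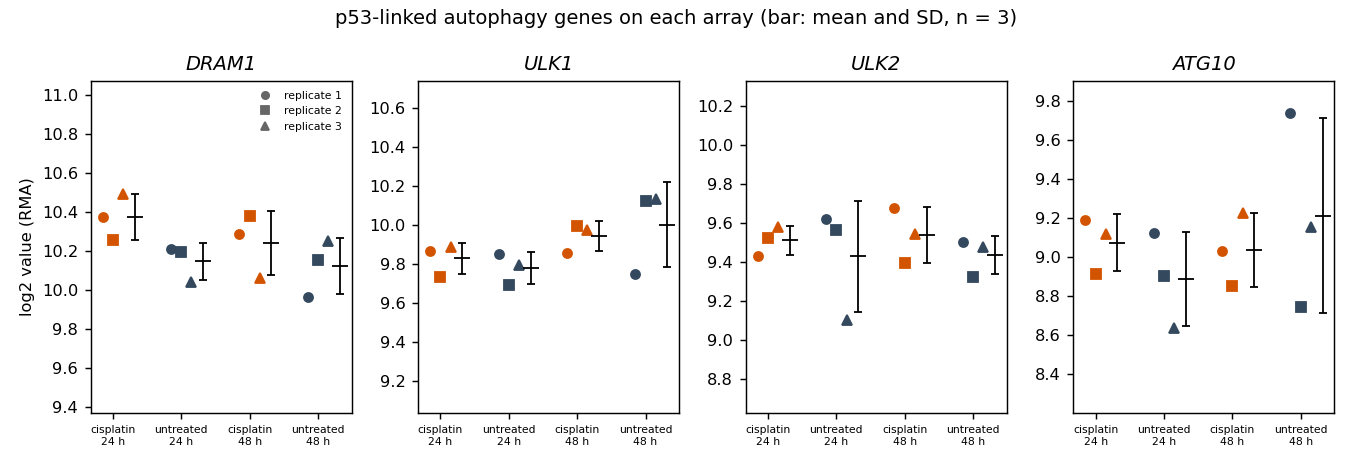
The log2 value (RMA) of DRAM1, ULK1, ULK2 and ATG10 is plotted for each array, cisplatin in orange left of untreated in dark blue at each time, with a bar for the mean and SD of 3 arrays and a symbol for the replicate number. The groups are apart for DRAM1 at 24 h alone; the y axis of each panel spans the same width.

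Over both times the medians of the p53-linked genes and of the rest of the set were 0.05 for the 4 and 0.06 for the other 29. Their order changed with the arrays used: without untreated 48 h replicate 1 they were 0.12 for the 4 and 0.07 for the 29, without untreated 24 h replicate 1 0.09 and 0.07, and without cisplatin 48 h replicate 2 0.09 and 0.07. Over all such omissions the median of the 4 ran between 0.0065, without untreated 24 h replicate 3, and 0.12. At 24 h the medians were 0.13 for the 4 and 0.08 for the 29, and at 48 h they were 0.02 and 0.04. Without untreated 24 h replicate 3, they were 0.06 for the 4 and -0.01 for the 29 at 24 h. The medians were not tested against each other.

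In the initiation complex, the scaffold subunits ATG13, ATG101 and RB1CC1 stand beside the ULK kinases. All 5 genes were measured, 4 of them above 0 over both times, with a median of 0.05. ATG13, which recruits the complex to the membrane, averaged 10.45 ± 0.10 in cisplatin and 10.40 ± 0.10 in untreated cells (SD, n = 6 each), and the difference was 0.05 at both times. ATG101, the partner of ATG13, averaged 10.13 ± 0.20 in cisplatin and 10.08 ± 0.15 in untreated cells. Replicate 2 of untreated cells at 48 h, at 10.36, was as high as the highest cisplatin array, at 10.35. RB1CC1, chosen after its values were seen because it moved with replicate numbers, was lowest in replicate 2 of each group at 48 h, at 8.54 in cisplatin and 8.54 in untreated cells.

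In the lipid kinase complex, 5 of 6 genes were measured, and all 5 were above 0 over both times, between 0.05 and 0.08. This complex makes the lipid PI3P on the growing membrane. AMBRA1, a regulator of the complex, averaged 9.23 ± 0.05 in cisplatin and 9.16 ± 0.10 in untreated cells (SD, n = 6 each), a difference of 0.07 (SE 0.07). ATG14 averaged 8.18 ± 0.13 in cisplatin and 8.10 ± 0.19 in untreated cells, and its difference of 0.08 was 0.01 without untreated 24 h replicate 3. PIK3R4, the regulatory subunit, was chosen after its values were seen: it was at 9.08 on untreated 24 h replicate 3 and at 9.70 to 9.98 on the other untreated arrays. Its difference at 24 h was 0.22 with that array and -0.01 without it. Without the array, 1 of the 5 genes of this complex was above 0 at 24 h.

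Membrane supply was represented by 3 of 6 genes: WIPI2 reads PI3P, ATG2B transfers lipid and ATG9A scrambles it. WIPI2 was at 9.65, 9.65 and 9.67 in cisplatin and at 9.59, 9.57 and 9.48 in untreated cells at 24 h, so the groups were apart. Its values at 48 h were 9.70, 9.76 and 9.78 in cisplatin and 9.78, 9.76 and 9.68 in untreated cells, and they overlapped. ATG9A was at 9.97, 10.07 and 10.01 in cisplatin and at 9.82, 9.92 and 9.66 in untreated cells at 24 h, again apart. The 48 h arrays gave 9.76, 10.00 and 9.96 in cisplatin and 9.90, 10.05 and 9.98 in untreated cells, and the groups overlapped. The ATG9A difference was 0.22 (SE 0.11, adjusted p = 0.912, limma) at 24 h and -0.07 at 48 h, and 0.15 at 24 h without untreated 24 h replicate 3. WIPI2 differed by 0.11 at 24 h, and by 0.07 without that array. ATG2B averaged 8.75 ± 0.17 in cisplatin and 8.68 ± 0.25 in untreated cells (SD, n = 6 each).

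The conjugation system showed opposite signs at the 2 times, and 2 untreated arrays lay at its extremes. Of 10 genes, 7 were measured; all 7 were above 0 at 24 h, with a median of 0.09, and 6 of the 7 were below 0 at 48 h, with a median of -0.09. All genes leaned the same ways, with 57.9% above 0 at 24 h and 42.2% at 48 h, and no gene of the conjugation system passed the test at either time. ATG7, the activating enzyme of both conjugation arms, was at 8.66, 8.54 and 8.63 in cisplatin and at 8.56, 8.50 and 8.07 in untreated cells at 24 h. At 48 h it was at 8.46, 8.42 and 8.47 in cisplatin and at 8.72, 8.43 and 8.43 in untreated cells. Untreated 24 h replicate 3 was its lowest array and untreated 48 h replicate 1 its highest. ATG4C, a protease that processes ATG8 proteins, and ATG5, the target of ATG12, showed these extremes too and were chosen after their values were seen. At 48 h, ATG4C was at 8.80, 8.63 and 8.83 in cisplatin and at 9.27, 8.46 and 8.80 in untreated cells. Without untreated 24 h replicate 3, 4 of the 7 genes were above 0 at 24 h, and without untreated 48 h replicate 1, 6 of the 7 were above 0 at 48 h, with a median of 0.05 in each case. Without untreated 48 h replicate 2, 2 of the 7 were above 0 at 48 h, with a median of -0.16. ATG4A, a protease of the same family, was the exception at 48 h, with a difference of 0.19 (SE 0.15). It was at 8.04, 7.84 and 8.03 in cisplatin and at 7.86, 7.62 and 7.86 in untreated cells there, and its cisplatin 24 h replicate 3, at 8.33, was the highest of its 12 values.

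The ATG8 proteins become the coat of the vesicle to which receptors bind, and 4 of 5 of their genes were measured. All 4 were above 0 over both times, between 0.03 and 0.11, and none was called. Without untreated 24 h replicate 3, GABARAPL2 was at a difference of -0.0089 over both times, and 2 of the 4 were above 0 at 24 h, with a median of 0.01. GABARAP was at 12.81, 12.76 and 12.85 in cisplatin and at 12.65, 12.60 and 12.75 in untreated cells at 48 h. Those groups were apart, by 0.01 between the nearest arrays. At 24 h it was at 12.58, 12.65 and 12.70 in cisplatin and at 12.71, 12.46 and 12.62 in untreated cells, where they overlapped. The GABARAP difference was 0.14 (SE 0.10, adjusted p = 1, limma) at 48 h and 0.05 at 24 h. MAP1LC3A was at 7.66, 7.48 and 7.47 in cisplatin and at 7.19, 7.30 and 7.51 in untreated cells at 24 h. Its values at 48 h were 7.52, 7.50 and 7.47 in cisplatin and 7.29, 7.56 and 7.59 in untreated cells. MAP1LC3A averaged 7.52 ± 0.07 in cisplatin and 7.41 ± 0.17 in untreated cells (SD, n = 6 each), with a wider spread between the untreated arrays, 3 of which were low. MAP1LC3B, which encodes the LC3 protein most used as a marker of autophagosomes, averaged 11.84 ± 0.15 in cisplatin and 11.78 ± 0.14 in untreated cells. GABARAPL2 averaged 11.05 ± 0.15 in cisplatin and 11.02 ± 0.14 in untreated cells.

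The cargo receptors had the highest group median over both times, 0.15, from 3 of 4 genes. NBR1, which carries ubiquitin-tagged proteins to the vesicle, was at 9.82, 10.02 and 10.24 in cisplatin and at 9.99, 10.01 and 9.80 in untreated cells at 24 h. The 48 h arrays gave 10.24, 10.12 and 10.36 in cisplatin and 10.03, 9.77 and 10.16 in untreated cells. Groups overlapped at both times, at 48 h through cisplatin replicate 2 and untreated replicate 3. The NBR1 difference was 0.17 (SE 0.10, 1.13-fold, adjusted p = 0.991, limma) over both times and 0.26 at 48 h. At 48 h each cisplatin array of NBR1 was above the untreated array of the same replicate number. This was not particular to NBR1, since further genes of the set showed it too. Neither their number nor the share over all genes was counted, so the ordering is not read as a result. OPTN, a receptor for ubiquitin-tagged bacteria and mitochondria, was at 8.41, 8.21 and 8.55 in cisplatin and at 8.43, 8.15 and 8.07 in untreated cells at 24 h. At 48 h it was at 8.40, 8.21 and 8.32 in cisplatin and at 8.18, 8.15 and 8.22 in untreated cells, and the single overlap there was 1 array of each group. The OPTN difference was 0.15 (SE 0.08) over both times, and 0.12 without untreated 24 h replicate 3. CALCOCO2, chosen after its values were seen, differed by 0.09.

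**Figure D5:**
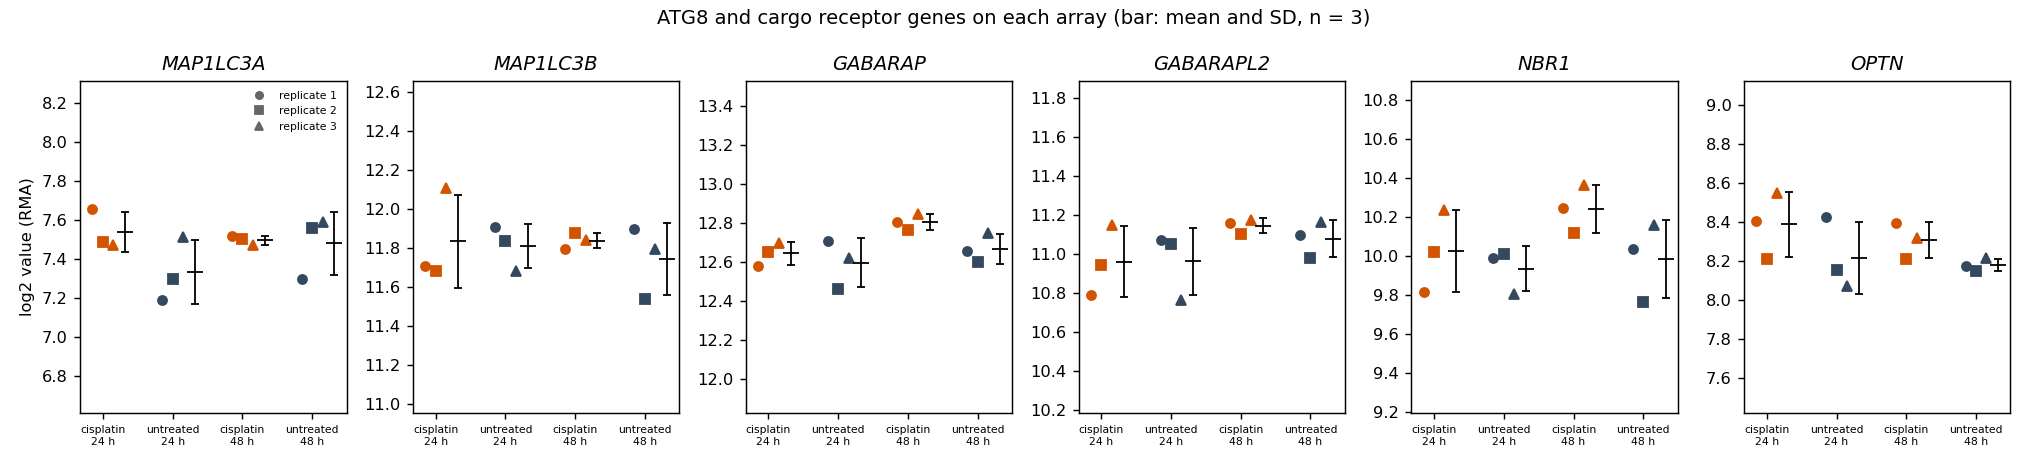
The log2 value (RMA) of 4 ATG8 genes and of the cargo receptor genes NBR1 and OPTN is plotted for each array, cisplatin in orange left of untreated in dark blue at each time, with a bar for the mean and SD of 3 arrays and a symbol for the replicate number. Of these panels, only GABARAP at 48 h has every cisplatin array above every untreated one.

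Of the lysosomal genes and their regulators, none passed the test, DRAM1 included, which had the largest difference of them over both times. All 6 were measured, with a median of 0.03 over both times. The regulators TFEB and TFE3 were chosen after their values were seen. TFEB averaged 7.82 ± 0.07 in cisplatin and 7.83 ± 0.13 in untreated cells (SD, n = 6 each), a difference of -0.01, and TFE3 averaged 10.13 ± 0.09 in cisplatin and 10.12 ± 0.14 in untreated cells, a difference of 0.0018. LAMP1, whose promoter held the 6 copies of CACGTG shown above, averaged 10.23 ± 0.07 in cisplatin and 10.19 ± 0.07 in untreated cells, a difference of 0.04 (SE 0.07). ATG14 and ATG3, which share the letters, differed by 0.08 and -0.04. LAMP2, a lysosomal protein needed for fusion with the vesicle, averaged 10.03 ± 0.11 in cisplatin and 10.00 ± 0.15 in untreated cells. DRAM2, a relative of DRAM1 chosen after its values were seen, differed by 0.13 at 24 h and by -0.06 at 48 h, where untreated replicate 1 was its highest array at 11.22.

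Between the 2 times, the effects of the 33 genes did not line up. At both times 19 genes were above 0, 12 were above 0 at 24 h and below 0 at 48 h, 2 were the reverse and 0 were below 0 at both. Across the 33 genes the effects at 24 h and 48 h, which share no arrays, had a Pearson correlation of -0.33, given as a description over genes that are not independent of each other. The 48 h arrays against the 24 h arrays, both treatments together, gave 0 of the 33 genes at an adjusted p under 0.05, where 0.134% of all genes passed. At an unadjusted p under 0.05 it was 1 of the 33, where 6.13% of all genes passed. That gene was WIPI2, which was 0.14 (SE 0.06) higher at 48 h (adjusted p = 0.799, limma).

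At 48 h the arrays of the same replicate number deviated together. The deviations of the 33 genes from their group means had a correlation of 0.75 between cisplatin and untreated replicate 2, of 0.27 between the arrays of replicate 1 and of 0.39 between those of replicate 3. Replicate 2 at 48 h was low under both treatments for PIK3C3, at 8.33 in cisplatin and 8.29 in untreated cells, and for ATG2B, at 8.56 in cisplatin and 8.48 in untreated cells. PIK3C3, the lipid kinase itself, was chosen after its values were seen. With the 48 h arrays alone and the number as a replicate block, 0 genes of the set reached the adjusted threshold of 0.05 in limma, and ATG4A and NBR1, both higher in cisplatin, passed an unadjusted one, 2 of the 33, where 5.02% of all genes did.

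Further genes of the pathway, outside the set, were measured for 49 of 60 listed genes. Over both times limma called 0 of the 49 at an adjusted p under 0.05, and called VAMP8, EI24 and TP53INP1 at an unadjusted one, 3 of the 49, where 3.33% of all genes were. Of all genes, 53.8% were above 0 over both times, and 45.0% without untreated 24 h replicate 3. Of the genes for fusion with the lysosome, 11 of 13 were measured and all 11 were above 0, with a median of 0.09, and without that array 9 were, with a median of 0.05. VAMP8, a SNARE protein of that fusion, was the highest of them, at 0.29, and at 0.17 without untreated 24 h replicate 3, on which it was at 9.13. Of further cargo receptors and mitophagy genes, 11 of 13 measured were above 0, with a median of 0.08, and without that array 10 were. Of lysosomal enzymes and membrane proteins, 14 of 15 measured were above 0, with a median of 0.10, and without that array 13 were, with a median of 0.04. Of accessory factors, 8 of 10 measured were above 0, with a median of 0.09, and without that array again 8. In this last list TP53INP1, a p53 target that binds ATG8 proteins, averaged 8.57 ± 0.36 in cisplatin and 7.72 ± 0.47 in untreated cells (SD, n = 6 each). EI24, an endoplasmic reticulum protein of the pathway, differed by 0.22. The TP53INP1 difference of 0.85 (SE 0.17, 1.80-fold) exceeded that of all 33 autophagy genes and had an adjusted p of 0.131 by limma. TP53INP1 and EI24, like CDKN1A, are on the list of genes the study chose from these arrays, so their direction here is not independent evidence. Apart from the arrays, the study reports RT-qPCR in which its most up-regulated genes were over-expressed. Its assay list holds TP53INP1, with the assay ID also printed for ACTA2.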

How the data were processed

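RNA of A549 cells was measured on 12 exon arrays, 3 per condition. The deposited values are log2 intensities that the authors made with Affymetrix Expression Console, Affymetrix Power Tools and RMA (versions not given in the sources used here). Clusters were named through the platform's annotation: 14432 had 1 symbol, 2408 several, and 5171 were not in the table. The brightest cluster per gene was kept, which left 14232 genes. R 4.3.3 and limma 3.58.1 were used. The effect over both times came from terms for treatment and time, and the effects at 24 h, at 48 h and their difference came from a fit of the 4 groups. Moderated p-values of all genes were adjusted together (Benjamini-Hochberg), and the procedure was tested on simulated data. The simulated noise was independent, with the same spread on every array. It held no outlying array and no link between same-numbered arrays, so it cannot show how the procedure behaves with these. Precision is limited by how many arrays there are.

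The members and lists were chosen with earlier results of these data known. Genes named with full values are the p53-linked genes, those at an unadjusted p under 0.05, the ATG8 genes, up to 2 further genes per role and up to 3 of each other list with the smallest p over both times, and others are said to be chosen after their values were seen. The methods mention 1 discarded outlier at 24 h without naming it, so all 12 arrays were used. The study's printed log fold changes of CDKN1A, TP53INP1 and EI24, which carry a minus sign, match in size the 12-array differences here (1.14, 0.85 and 0.22). Without untreated 24 h replicate 3 these are 1.05, 0.79 and 0.16, so the published values include that array. Same-numbered arrays were checked by the correlation of their deviations from the group means over all genes, which was 0.31, 0.60 and 0.17 for replicates 1, 2 and 3 at 48 h and -0.34, 0.21 and -0.39 at 24 h. The numbers were therefore taken to pair the arrays at 48 h alone. Alternatives were the replicate block, no time term, each array left out, array weights, quantile normalization, the mean of a gene's clusters, robust variances with an intensity trend, median centring and a filter to genes above the median level. The 48 h arrays alone with the block were added after seeing the data. The siRNA screen and the RT-qPCR were not analysed here.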

Additional observations from a re-analysis of the deposited data

Results flagged for a closer look

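In each treatment's 6 arrays, a gene was looked at again where its highest or lowest array lay far from the nearest other (Dixon's criterion). This held for 4 of 66 groups of arrays, where chance gives about 1 in 20. ATG101 was at 10.36 on untreated 48 h replicate 2, with the other untreated arrays at 9.93 to 10.08. PIK3R4 was at 9.08 on untreated 24 h replicate 3, with the others at 9.70 to 9.98. ATG9A was at 9.76 on cisplatin 48 h replicate 1, with the others at 9.96 to 10.07. MAP1LC3A was at 7.66 on cisplatin 24 h replicate 1, with the others at 7.47 to 7.52.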

How the results depend on the processing

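The count of autophagy genes at an adjusted p under 0.05 from limma was 0 under every setting run, at each time and over both, except with array weights at 24 h, where it was 4. These were ATG101 (0.28), ATG4C (0.25), MAP1LC3A (0.21) and GABARAP (0.18), all higher in cisplatin, where 2254 of all genes passed (15.8%). The weights of that fit did not converge, and 1 array, untreated 24 h replicate 2, had a weight of 17.4. With the replicate number as a replicate block the count was 0 over both times, at 24 h, at 48 h, for the difference and for time, and no call of an autophagy gene changed. Over all genes it gave 17 calls over both times, against 4 without it. With each array left out in turn, the count was 0 in every comparison. Over both times the settings gave between 3 and 55 calls over all genes, the highest with array weights, and 18 without untreated 48 h replicate 1.

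The directions were less stable than the calls. Over both times, 15 settings moved the differences of the 33 genes (each array left out, quantile normalization, median centring and array weights). In these, 65 of 495 pairs of a gene and a setting had the other sign, and 15 of the 33 genes, DRAM1 (0.05 to 0.22) and NBR1 among them, had the same sign throughout. With array weights ULK1 (-0.06) was further from 0 than DRAM1 (0.05). After quantile normalization the median at 24 h was -0.0087, with 15 of 33 above 0, and over both times it was 0.02, with 19 above 0. Median centring gave 25 of 33 above 0 at 24 h. The cause was not tested.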
